A study of Chlorocebus sabaeus with 4 samples.

Results

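Autotaxin, the lysophosphatidic acid (LPA) receptors and the phosphatases that break LPA down were examined as 9 named genes: ENPP2 (autotaxin), LPAR1, LPAR2, LPAR3, LPAR4, LPAR5, LPAR6, PLPP1 and PLPP3. They were found by gene symbol in the array's annotation, and 8 of the 9 had 1 or more probe sets, 17 in all, among 19775 genes measured. LPAR5 had no probe set with that symbol and was not analysed here. The genes were chosen with their values on these arrays known, among them the ENPP2 difference in the ad libitum animal, so all their values are a description and carry no test.

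The tissue was corpus luteum, the short-lived ovarian gland that makes progesterone after ovulation, from 2 adult female vervet monkeys (Chlorocebus sabaeus), both 16 years old. One animal, monkey 1031, was on calorie restriction, and the other, monkey 1030, was fed ad libitum. Each gave sample 2 and sample 1, the animal being its own control for a change of weight, and the labels do not say which was collected first. Each diet is thus 1 animal, each sample is 1 array, and differences between samples or animals have no replicate check.

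LPA is a small phospholipid that acts as an extracellular signal. Autotaxin, a secreted lysophospholipase D, makes it from lysophosphatidylcholine. LPAR1, LPAR2 and LPAR3 belong to one family of G protein-coupled receptors, together with the receptors of sphingosine 1-phosphate, while LPAR4, LPAR5 and LPAR6 are closer to the purinergic receptors. PLPP1 and PLPP3 are membrane enzymes that remove the phosphate from LPA outside the cell and so end its action. In cultured cells LPA drives growth, movement and contraction.

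The deposited values were log2 signals per probe set, normalised by the authors with RMA, and the difference between 2 samples is therefore a log2 ratio. Genes were called higher or lower where they were 2-fold apart (a log2 difference of 1), which is a rule of size. Where a gene had several probe sets, the brightest on average stood for it. The level filter, the median of these means over all genes (log2 5.26), was passed by 6 of the 8 measured members, and LPAR3 and LPAR4 lay below it. All probe sets were designed on human sequence, and how well each matches the vervet transcript was not analysed here. The array of sample 2 of the ad libitum animal lay far from the other 3. Of 9888 genes past the filter, 912 to 1031 were 2-fold apart between that array and each other one, against 122 to 333 among the other 3 arrays.

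Autotaxin was the member with the largest difference. Probe set 209392_at of ENPP2 read 13.62 in sample 2 and 13.37 in sample 1 of the calorie restriction animal, and 9.37 in sample 2 and 13.73 in sample 1 of the ad libitum animal. Probe set 210839_s_at read 13.34 in sample 2 and 13.11 in sample 1 of the calorie restriction animal, and 7.58 in sample 2 and 13.83 in sample 1 of the ad libitum animal. On both probe sets a single array, sample 2 of the ad libitum animal, was low. The other 3 arrays lay within 0.36 log2 units of each other on the first probe set and within 0.72 on the second.

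In the ad libitum animal, sample 2 was 20.6-fold lower than sample 1 on 209392_at (log2 difference -4.37) and 76.3-fold lower on 210839_s_at (-6.25). In the calorie restriction animal, sample 2 was 1.19-fold higher than sample 1 on 209392_at (0.25) and 1.17-fold higher on 210839_s_at (0.23), both under 2-fold. The direction of both probe sets was alike in each animal, but the size in the ad libitum animal differed between them by 1.89 log2 units. Of 3343 genes with more than 1 probe set past the level filter, 33 (0.99%) had probe sets at least that far apart in this comparison. That share is over genes with any size of difference. It does not say how common such a gap is among genes that differed as much as ENPP2.

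**Figure D1:**
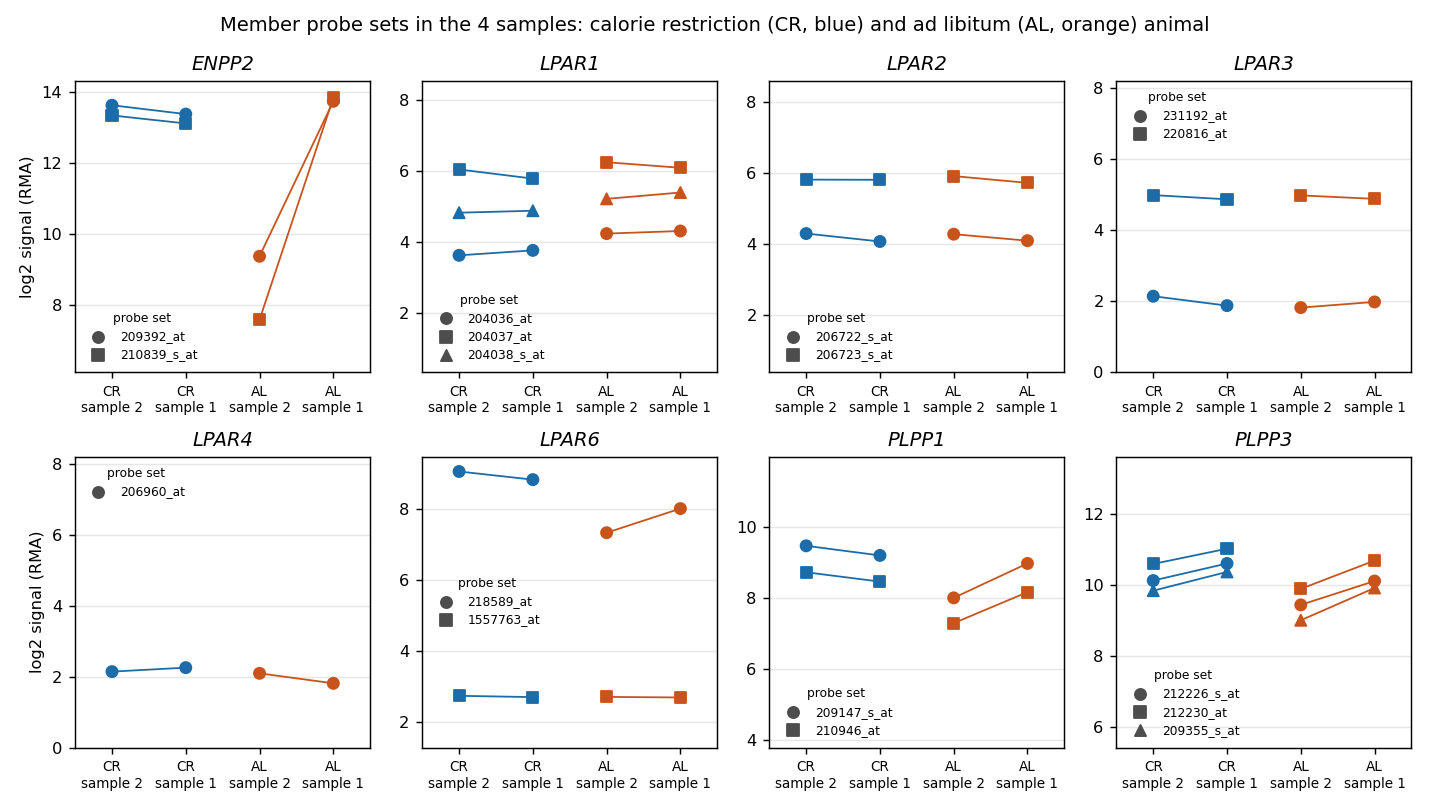
Log2 RMA signal of every member probe set (marker shape) in each of the 4 samples. Blue points are the calorie restriction (CR) animal and orange points the ad libitum (AL) animal, lines join the samples of an animal, each point is 1 array and every panel spans the same number of log2 units. ENPP2 in AL sample 2 reads 9.37 and 7.58, against 13.11 to 13.83 in the other 3 samples.

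Markers of luteal steroidogenic cells were lower, as ENPP2 was, in sample 2 of the ad libitum animal. All 9 of 9 (STAR, CYP11A1, HSD3B2, SCARB1, LHCGR, FDX1, CYP19A1, INHA and HSD11B1) were 2-fold lower in sample 2 than in sample 1 of the ad libitum animal, with a median difference of -3.68 and a range from -5.96 for aromatase, CYP19A1, to -2.10 for the luteinising hormone receptor LHCGR. CYP19A1 has 7 probe sets, of which only the brightest passed the level filter, and their mean difference was -1.43. In the calorie restriction animal 4 of the 9 were higher and none lower, with a median of 0.77. The median log2 signal of this list was 11.27 in sample 2 and 10.24 in sample 1 of the calorie restriction animal, and 7.24 in sample 2 and 11.42 in sample 1 of the ad libitum animal. When all probe sets were averaged the 9 were still lower in the ad libitum animal, with a median of -2.19. All 9 passed the level filter, past which 6.58% of genes were lower in the ad libitum animal and 0.496% higher in the calorie restriction animal. The part of these markers in the ENPP2 difference was not tested. In RNA of whole tissue, fewer cells of a type and less RNA per cell cannot be told apart.

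Among other cell types, endothelial markers also had lower levels in the ad libitum animal's sample 2, with 5 of 10 lower (3 of 10 when all probe sets were averaged), none higher and a median of -0.97. They had a median difference of -0.36 in the calorie restriction animal, with 1 of 10 lower. Their median log2 signal was 8.16 in sample 2 and 8.10 in sample 1 of the calorie restriction animal, and 6.57 in sample 2 and 7.77 in sample 1 of the ad libitum animal. Theca markers had 2 of 4 lower (median -1.11) in the calorie restriction animal and 3 of 4 higher (median 1.12) in the ad libitum animal, or 1 of 4 (median 0.60) when all probe sets were averaged. Adipocyte markers, listed because fat tissue is a known source of autotaxin, had medians of 0.10 in the calorie restriction animal and 0.10 in the ad libitum animal, with none of 5 at 2-fold. Only 1 of these 5 passed the level filter, so their medians say little about fat cells. In the ad libitum animal the medians were -0.27 for fibroblast (none of 7 at 2-fold), 0.25 for smooth muscle and pericyte (1 of 9 higher, 2 lower), 0.40 for macrophage (2 of 8 higher, 1 lower), 0.13 for T and NK cell (1 of 6 lower) and 0.18 for platelet markers (none of 4). When all probe sets were averaged, these counts came to 1 of 9 lower for smooth muscle and pericyte, 1 of 8 higher for macrophage and none of 6 for T and NK cell markers, and without less specific probe sets the smooth muscle and pericyte median was -0.01. In the calorie restriction animal they were 0.16, 0.20, -0.14, -0.04 and -0.09 in the same order, with TAGLN, a smooth muscle gene, higher and PPBP, a platelet gene, lower. When all probe sets were averaged, neither TAGLN nor the endothelial marker was at 2-fold in that animal. Of genes past the level filter, 2.67% were higher and 6.58% lower in the ad libitum animal, and 0.496% and 0.738% in the calorie restriction animal. Over all genes these shares were 1.96% and 3.83%, and 0.349% and 0.45%. The part of these cell types in the members' differences was not tested.

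LPAR6, a receptor of the purinergic-like group, was the receptor with the largest differences between the animals and within the ad libitum animal. Its probe set 218589_at read 9.05 in sample 2 and 8.82 in sample 1 of the calorie restriction animal, and 7.33 in sample 2 and 8.01 in sample 1 of the ad libitum animal. Both samples of the calorie restriction animal were thus above both of the ad libitum animal. Within the animals, sample 2 was 1.17-fold higher than sample 1 under calorie restriction (0.23) and 1.60-fold lower under ad libitum feeding (-0.68). The other LPAR6 probe set, 1557763_at, lay between 2.68 and 2.73 in all 4 samples, below the 25th percentile of gene levels (3.55), with differences within an animal of at most 0.04.

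LPAR1, which couples to Gi, Gq and G12/13 proteins, differed little within either animal. Its brightest probe set, 204037_at, read 6.05 in sample 2 and 5.79 in sample 1 of the calorie restriction animal, and 6.25 in sample 2 and 6.09 in sample 1 of the ad libitum animal. Over its 3 probe sets the difference between samples ran from -0.14 to 0.26 in the calorie restriction animal and from -0.18 to 0.16 in the ad libitum animal. On all 3, both samples of the calorie restriction animal lay below both of the ad libitum animal, by 0.25 to 0.58 log2 units between means, a difference under 2-fold in each case.

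LPAR2, LPAR3 and LPAR4 were nearly level across the arrays. The brighter LPAR2 probe set, 206723_s_at, read 5.81 in sample 2 and 5.81 in sample 1 of the calorie restriction animal, and 5.91 in sample 2 and 5.72 in sample 1 of the ad libitum animal. The brighter LPAR3 probe set, 220816_at, read 4.99 in sample 2 and 4.87 in sample 1 of the calorie restriction animal, and 4.98 in sample 2 and 4.88 in sample 1 of the ad libitum animal. For both genes the samples of the 2 animals overlapped. LPAR4, on its single probe set 206960_at, read 2.14 in sample 2 and 2.26 in sample 1 of the calorie restriction animal, and 2.10 in sample 2 and 1.82 in sample 1 of the ad libitum animal. These LPAR4 values lie below the 25th percentile of gene levels. The dimmer probe sets of LPAR2 (206722_s_at) and LPAR3 (231192_at) spanned 0.22 and 0.32 log2 units over the 4 samples.

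Both LPA phosphatases among the members were lower in the ad libitum animal's sample 2 than in its sample 1, though under 2-fold. PLPP1 on 209147_s_at read 9.48 in sample 2 and 9.21 in sample 1 of the calorie restriction animal, and 8.01 in sample 2 and 8.98 in sample 1 of the ad libitum animal. Sample 2 was 1.21-fold higher (0.27) in the calorie restriction animal and 1.96-fold lower (-0.97) in the ad libitum animal, and the other probe set, 210946_at, gave 0.26 under calorie restriction and -0.87 under ad libitum feeding. On both PLPP1 probe sets the samples of the calorie restriction animal were above those of the ad libitum animal.

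Of the member phosphatases PLPP1 and PLPP3, only PLPP3 had a negative difference in both animals. On its brightest probe set, 212230_at, it read 10.61 in sample 2 and 11.04 in sample 1 of the calorie restriction animal, and 9.90 in sample 2 and 10.70 in sample 1 of the ad libitum animal. Sample 2 was 1.35-fold lower (-0.43) in the calorie restriction animal and 1.74-fold lower (-0.80) in the ad libitum animal. Its 3 probe sets ran from -0.53 to -0.43 in the calorie restriction animal and from -0.91 to -0.67 in the ad libitum animal. The lowest of the 4 arrays was sample 2 of the ad libitum animal on each of them.

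**Figure D2:**
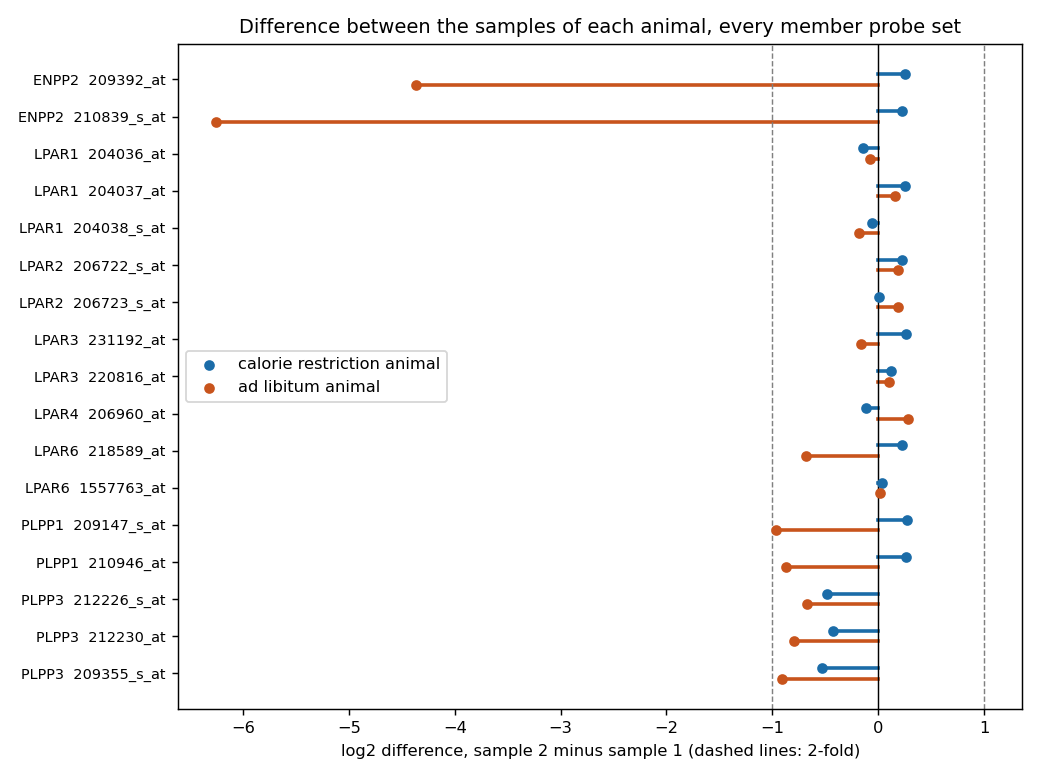
Log2 difference of sample 2 minus sample 1 for every member probe set, with the calorie restriction animal (blue) above the ad libitum animal (orange) in each row and dashed lines at 2-fold. Only the ENPP2 probe sets in the ad libitum animal pass 2-fold, at -4.37 and -6.25.

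Within the calorie restriction animal, the question was how the gland differed between the animal's samples, and none of the 8 members was 2-fold apart. Over all genes 0.349% were 2-fold higher and 0.45% lower. Over genes past the level filter, which 6 of the 8 passed, the shares were 0.496% and 0.738%. Of the 8, 6 had a positive and 2 a negative difference (LPAR4 and PLPP3), with a median of 0.17, against a median of 0.00 over all 19775 genes. Within the ad libitum animal 1 of 8, ENPP2, was lower and none higher, where 3.83% of all genes were lower and 1.96% higher. Past the filter the shares were 6.58% and 2.67%. The median of the 8 was -0.29, against 0.02 over all genes. The ENPP2 difference in this animal was known when the genes were chosen, so the count is given as a description only. At 1.5-fold, 4 of the 8 (ENPP2, LPAR6, PLPP1 and PLPP3) were lower and none higher, where 15.2% of genes past the filter were lower. All 4 are among the 6 members past the filter.

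Between the animals, called where 2-fold apart between the means of the samples and without overlap, LPAR6 was the single member of 8 that was higher in the calorie restriction animal (2.41-fold, log2 difference 1.27), and none was lower. By the same rule 0.991% of all genes were higher and 0.986% lower, and past the level filter 1.81% and 1.27%. The LPAR6 difference rests in part on the ad libitum animal's sample 2: without that array it was 0.93, under 2-fold, and with the mean of both LPAR6 probe sets it was 0.65. ENPP2 was not called, since the samples overlapped. The mean difference of ENPP2 between the calorie restriction and the ad libitum animal was 1.95 with all 4 arrays, 4.13 without the ad libitum animal's sample 1 and -0.24 without its sample 2. For PLPP1, whose samples did not overlap, the mean difference was 0.85 with all arrays, 1.33 without the ad libitum animal's sample 1 and 0.36 without its sample 2.

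Of the other ENPP family genes, 5 were measured, and 3 were 2-fold lower in sample 2 of the ad libitum animal, as ENPP2 was. ENPP1, which makes pyrophosphate from ATP, read 10.75 in sample 2 and 10.36 in sample 1 of the calorie restriction animal, and 7.38 in sample 2 and 10.63 in sample 1 of the ad libitum animal. Sample 2 was 9.54-fold lower than sample 1 in the animal fed ad libitum (-3.25), and its other probe sets past the filter gave -3.72 and -1.13. ENPP4, a nucleotide-cleaving enzyme, was lower by the same comparison (-1.69), as was ENPP3 (-2.19), a related nucleotidase below the level filter. ENPP3 differed from the rest in its pattern: sample 2 of the ad libitum animal (4.04) was close to samples 2 and 1 of the calorie restriction animal (4.07 and 4.00), and sample 1 of the ad libitum animal was the one high array, at 6.22. None of the 5 was 2-fold apart in the calorie restriction animal. The share of all genes called lower in the ad libitum animal, without a level filter, was 3.83%. When all probe sets were averaged, 1 of the 5, ENPP1 (-2.18), stayed past 2-fold, with ENPP3 at -0.84 and ENPP4 at -0.97.

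The wider list of enzymes that make, convert or remove LPA and other lysophospholipids had 33 measured genes, of which 3 were lower and none higher in sample 2 than in sample 1 of the animal fed ad libitum, with a median of -0.03. Over all genes without a level filter, 3.83% were lower and 1.96% higher in this comparison. The 3 enzymes called lower were PLPPR5 (-2.41), a relative of the lipid phosphatases, PLA2G5 (4.01-fold lower), a secreted phospholipase A2, and PLPP5 (-1.02), a lipid phosphatase. With the mean of its probe sets PLPPR5 came to -1.32. PLPP5 came under 2-fold after cyclic loess, after repeated quantile normalisation and when all probe sets were averaged (-0.65). In the calorie restriction animal 0.349% of all genes were higher and 0.45% lower. PLA2G5 was the only one of the 33 that was 2-fold apart in the calorie restriction animal, where it was higher (1.42, or 2.67-fold). It read 8.43 in sample 2 and 7.01 in sample 1 of the calorie restriction animal, and 6.41 in sample 2 and 8.41 in sample 1 of the ad libitum animal. Averaged over its probe sets, the difference in the calorie restriction animal was 0.91, under 2-fold. Between animals PLPPR5 was called higher in the calorie restriction animal (1.84), the only call in this list. Its low array was again sample 2 of the ad libitum animal, at 4.38 against 6.79 to 7.43 in the others. By the rule between animals 0.991% of all genes were higher and 0.986% lower.

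Genes that act below the LPA receptors were mostly under 2-fold. Of 19 genes of G12/13, Gi and Gq signalling, 1 was lower in the calorie restriction animal's sample 2, 2 were lower in that of the ad libitum animal and none was higher in either, with medians of -0.09 and -0.19. Of genes past the level filter, which all 19 passed, 0.738% were lower in the calorie restriction animal and 6.58% in the ad libitum animal. Between animals, 1.81% of genes past the filter were called higher and 1.27% lower. RHOB, a small GTPase that is induced within minutes by growth factors, was lower in both animals (-1.20 under calorie restriction and -1.65 under ad libitum feeding). PLCB1, a phospholipase C that Gq activates, was lower in the ad libitum animal (-1.07) and higher between animals in the calorie restriction animal (1.38). When all probe sets were averaged neither gene was 2-fold apart within an animal, RHOB coming to -0.28 under calorie restriction and -0.51 under ad libitum feeding, and PLCB1 to -0.11 and -0.48 in the same order, and none of the 19 was called between animals. After repeated quantile normalisation 1 gene in place of 2 was called lower in the ad libitum animal. RHOA, ROCK1, ROCK2 and the G alpha subunits of the list were not 2-fold apart in either animal.

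Of 13 measured genes that LPA or serum induces in cultured cells, 1 was higher and 2 lower in the calorie restriction animal's sample 2, and 2 were lower in that of the ad libitum animal. Over all genes without a level filter, 0.349% were higher and 0.45% lower in the calorie restriction animal, and 3.83% lower in the ad libitum animal. EGR1, an immediate early transcription factor, was lower in both animals (-1.52 under calorie restriction and -1.99 under ad libitum feeding). FOS was lower in the calorie restriction animal (-1.92) and under 2-fold in the ad libitum animal (-0.92). CCN2, a matricellular protein and target of YAP, was lower in the ad libitum animal (-1.95), whereas it differed by 0.25 in the calorie restriction animal. TAGLN, a smooth muscle gene that the smooth muscle marker list also holds, was higher in the calorie restriction animal (1.11), and came to 0.80 with the mean of its probe sets. None of the 13 was called between animals. The list's median was 0.03 in the calorie restriction and -0.50 in the ad libitum animal.

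Among 13 measured genes of the sphingosine 1-phosphate system and other lysophospholipid receptors, S1PR3 was the only one that was 2-fold apart. Over all genes without a level filter, 3.83% were lower in the ad libitum animal. Between animals 0.991% of all genes were called higher and 0.986% lower. S1PR3, a receptor of sphingosine 1-phosphate, read 8.66 in sample 2 and 9.25 in sample 1 of the calorie restriction animal, and 6.92 in sample 2 and 8.58 in sample 1 of the ad libitum animal. Sample 2 was 3.15-fold lower in the ad libitum animal (-1.65) and differed by -0.58 on the log2 scale in the calorie restriction animal, and S1PR3 was called higher in the calorie restriction animal between animals (1.20). With the mean of its probe sets the ad libitum difference was -0.79, under 2-fold, and none of the 13 was called between animals. The median of the 13 was -0.03 in the calorie restriction and 0.07 in the ad libitum animal.

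Over the 83 measured genes of these 5 lists, 2 were higher and 3 lower in the calorie restriction animal's sample 2, and none was higher and 11 lower in that of the ad libitum animal. Over all genes without a level filter, 0.349% were higher and 0.45% lower in the calorie restriction animal, and 1.96% were higher and 3.83% lower in the ad libitum animal. Between animals 3 of the 83 were higher and none lower, where 0.991% and 0.986% of all genes were. These 3 calls (PLPPR5, PLCB1 and S1PR3) rest in part on the ad libitum animal's sample 2. All 3 genes read higher in both samples of the calorie restriction animal than in sample 1 of the ad libitum animal. Without the ad libitum animal's sample 2, none of the 83 passed 2-fold as higher, and 3 were called lower. Of genes past the level filter, which 59 of the 83 passed, 0.708% were then higher and 1.57% lower.

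**Figure D3:**
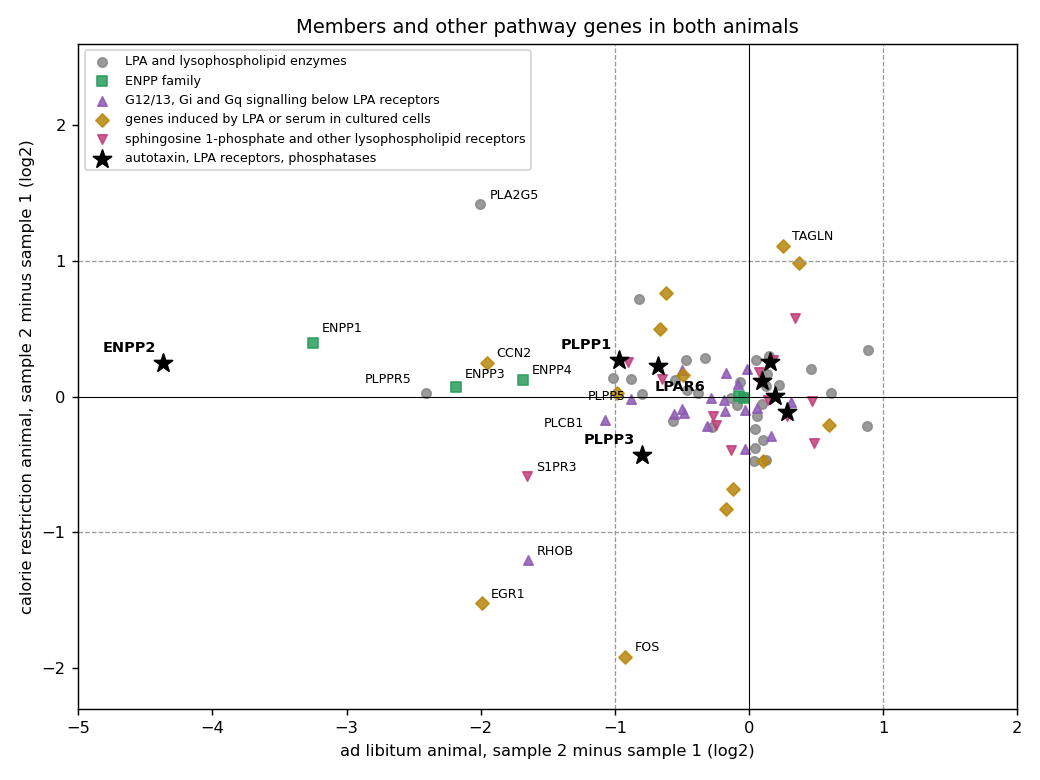
Log2 difference of sample 2 minus sample 1 in the ad libitum animal (x axis) against that in the calorie restriction animal (y axis) for the 8 members (black stars) and 83 other pathway genes (symbols by list), with dashed lines at 2-fold. ENPP2 lies farthest left at -4.37, followed by ENPP1 at -3.25, and in the calorie restriction animal they lie at 0.25 and 0.39.

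The genes past the level filter with a profile most like that of ENPP2 over the 4 arrays were DUSP5, MXRA5, CCDC134, IL1RN and CEMIP. Genes with placeholder-type symbols (those starting LOC, FLJ, KIAA, LINC, FAM and the like) were passed over in this search. Likeness was the root mean square difference between log2 signals, each centred on its own mean over the 4 samples, and it was 0.17, 0.19, 0.23, 0.31 and 0.35 in this order. DUSP5, a phosphatase that switches off ERK in the nucleus, read 9.75 in sample 2 and 9.93 in sample 1 of the calorie restriction animal, and 5.83 in sample 2 and 10.25 in sample 1 of the ad libitum animal. CEMIP, a hyaluronan-binding protein that takes part in hyaluronan breakdown, read 10.22 in sample 2 and 9.85 in sample 1 of the calorie restriction animal, and 6.22 in sample 2 and 9.64 in sample 1 of the ad libitum animal. Its difference in the ad libitum animal was -3.42, or -1.85 with the mean of its probe sets. The matrix protein gene MXRA5 differed by 0.28 in the calorie restriction and by -4.25 in the ad libitum animal, and IL1RN, the interleukin-1 receptor antagonist, by 0.16 and -4.58, with -2.65 in the ad libitum animal on its other probe set past the filter. CCDC134 differed by 0.38 and -4.48, but its other probe set past the filter gave -0.63 in the ad libitum animal. Sample 2 of the ad libitum animal was the lowest of the 4 arrays for 36.4% of genes past the level filter. It was also the lowest for 4 of the 8 members (ENPP2, LPAR6, PLPP1 and PLPP3) and for 9 of their 17 probe sets. These 4 are among the 6 members past the filter, and the share was not taken over all genes or over probe sets. Among the members, LPAR6 and PLPP1 were the pair past the filter with the most similar profile after LPAR1 and LPAR2, with a root mean square difference of 0.24.

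**Figure D4:**
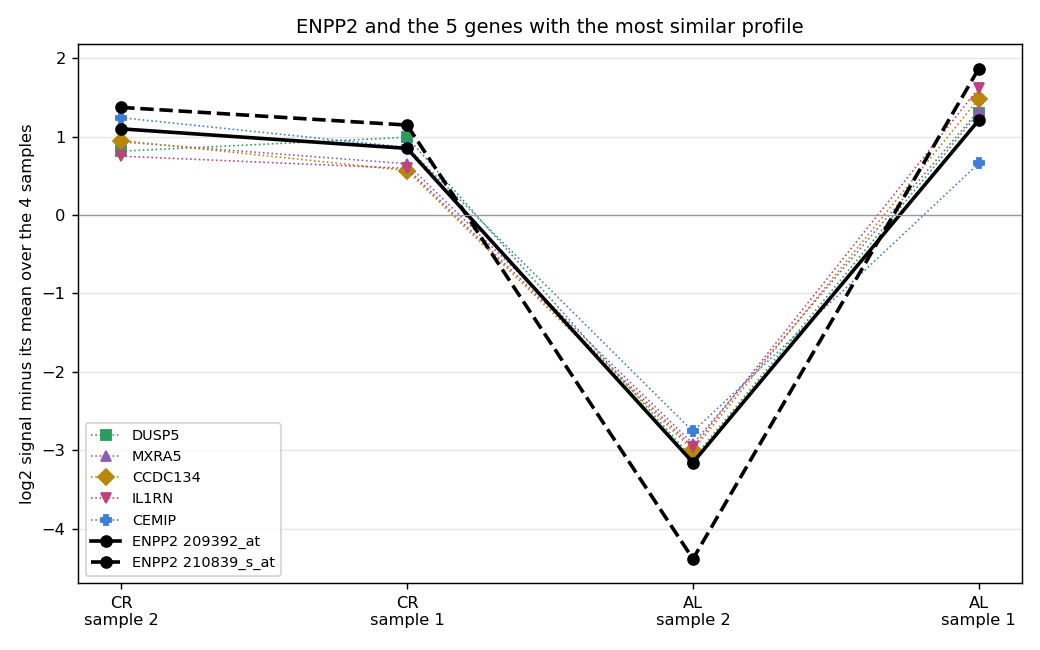
Log2 signal minus the gene's own mean over the 4 samples, by sample of the calorie restriction (CR) and ad libitum (AL) animal. Black lines are both ENPP2 probe sets, and dotted lines the 5 genes with the most similar profile, placeholder-type symbols passed over. All are lowest in AL sample 2, and probe set 210839_s_at of ENPP2 lies lowest there.

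Signals of added controls are given beside these differences. The mean log2 signal of the hybridisation control RNAs was 10.33 in sample 2 and 9.85 in sample 1 of the calorie restriction animal, and 9.59 in sample 2 and 10.33 in sample 1 of the ad libitum animal. The GAPDH probe sets, a sign of RNA integrity, had a 3' minus 5' difference of 1.41 in sample 2 and 1.31 in sample 1 of the calorie restriction animal, and 1.15 in sample 2 and 1.29 in sample 1 of the ad libitum animal. The same measure for ACTB was 1.73 in sample 2 and 1.48 in sample 1 of the calorie restriction animal, and 1.65 in sample 2 and 1.61 in sample 1 of the ad libitum animal. The ad libitum animal's sample 2 thus had the lowest hybridisation controls and the smallest GAPDH difference of the 4 arrays. The part of the hybridisation controls in the members' differences was not tested.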

How the data were processed

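Biotin-labelled cRNA, amplified from total RNA of frozen corpus luteum per the labels' protocols, was measured on 1 array for each sample. The authors deposited log2 signals for each probe set, which per the submitters' processing notes came from Affymetrix Power Tools and RMA; their version is not given in the sources used here. Of 54675 probe sets, 62 were controls, and the 41091 others with 1 gene symbol in the platform annotation were used. All 9 member symbols are in the RefSeq vervet annotation (mChlSab1.0.hap1). No test was made, since the members were chosen with these values known, and the number of arrays limits precision. The counting of 2-fold calls was tested on simulated data. Alternatives were the mean of a gene's probe sets, leaving out less specific designs (_s_at, _x_at, _a_at), cyclic loess and repeated quantile normalisation (limma 3.58.1, R 4.3.3), other level filters, 1.5-fold, and leaving out each sample between animals. Other work used Python 3.11.15.

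The members and the gene lists were chosen with earlier results of these data known. Named were all members and each pathway list's genes past 2-fold (at most the 4 largest each way), or else its largest difference each way. The 5 genes most like ENPP2 were also named, with placeholder-type symbols passed over. For marker lists the rule was the median and the largest difference, but the text gives counts and medians and names few of their genes. Scanner files were not used here, so detection of single probes was not analysed.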

Additional observations from a re-analysis of the deposited data

Results flagged for a closer look

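For 4 members the difference of sample 2 minus sample 1 had opposite signs in the calorie restriction and the ad libitum animal, and whether the animals differ was not tested, since each has 1 array per sample number. For ENPP2 the calorie restriction difference (0.25) minus the ad libitum difference (-4.37) was 4.62 log2 units, and for PLPP1 the same measure (0.27 minus -0.97) was 1.24. For LPAR6 it was 0.91 (0.23 minus -0.68). For LPAR4, whose signals lie below the 25th percentile of gene levels, it was -0.39 (-0.11 minus 0.28). The sign of each rests on the sample numbers, whose order of collection the labels do not give.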

How the results depend on the processing

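No paired fit with the animal as a block was made, since the differences are given as a description with no test. A value was taken as moved where it shifted by more than 0.5 log2 units or crossed 2-fold, and a count where it differed by more than 1.5 times. With cyclic loess and repeated quantile normalisation, no member's value and none of the member or pooled pathway counts moved by these measures. The main counts were taken without a level filter, and a filter only drops genes, so it cannot change a member's value. With a filter at the 25th percentile these counts were the same. At the median filter the ad libitum animal had 10 pathway genes lower in place of 11, and the other counts were unchanged. With the mean of all probe sets, ENPP2 in the ad libitum animal came to -5.31, no member was called higher between animals (0 against 1), and among the other pathway genes 0 were higher in the calorie restriction animal (against 2), 5 lower in the ad libitum animal (against 11) and 1 higher between animals (against 3). Without less specific probe sets, 1 pathway gene was higher in the calorie restriction animal. At 1.5-fold, 4 members were lower in the ad libitum animal and 2 higher between animals. The pathway counts were then 5 higher and 5 lower in the calorie restriction animal, 4 higher and 21 lower in the ad libitum animal, and 5 higher and 3 lower between animals. Of genes past the level filter, 15.2% were 1.5-fold lower in the ad libitum animal. For the other 1.5-fold counts the share over all genes was not taken, so they are given as counts only. Leaving out each sample in turn between animals gave 0 to 3 members higher (0 without the ad libitum animal's sample 2 and 3 without its sample 1), 0 to 9 pathway genes higher and 1 to 3 lower. In those settings 0.708% of genes past the level filter were higher without the ad libitum animal's sample 2 and 6.13% without its sample 1. These pathway counts were 5 higher and 2 lower without the calorie restriction sample 1, and 3 higher and 3 lower without its sample 2. They were 9 higher and 1 lower without the ad libitum sample 1, and 0 higher and 3 lower without its sample 2. Of genes past the level filter, 1.8% were higher and 1.97% lower without the calorie restriction sample 1, and 2.6% and 1.48% without its sample 2. The shares lower were 3.35% without the ad libitum sample 1 and 1.57% without its sample 2. Of the 83 pathway genes, 59 passed that filter. The mean difference of ENPP2 between the calorie restriction and ad libitum animals was 4.13 without the ad libitum sample 1 and turned to -0.24 without its sample 2. The cause of these shifts was not tested. Signal level limits LPAR3 and LPAR4, which lay below the level filter.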
